A study of Mus musculus with 12 samples.

Results

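The cytosolic ribosomal protein genes encode the protein parts of the ribosome that translates messenger RNA in the cytoplasm. They were taken from the gene symbols of the count table by name (Rpl or Rps with a number and at most 1 letter a, x, l or y, together with Rplp0, Rplp1, Rplp2 and Rpsa). The name rule matched 83 symbols. Rpl10l, a retrogene best known from testis, was left out, as were 3 genes annotated as pseudogenes (Rpl32l, Rpl6l and Rps4l). The remaining 79 genes, 48 of the large and 31 of the small subunit, were studied among 53819 symbols. After the filter on low counts 78 of them (47 large, 31 small) were tested among 13852 genes, and Rpl24, with 44 counts in all libraries together, was not.

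The 12 libraries came from E14, a single established line of mouse embryonic stem cells, grown in 2 dimensions. The labels name 4 groups of 3 libraries: untreated cells (control), cells given the amino acid proline (proline), cells given budesonide, a synthetic glucocorticoid (budesonide), and cells given both agents together (both). Each treatment lasted 72 h, while doses, the solvent and a time for the untreated cells are not in the labels. Whether replicates were cultured separately is not in the labels, and the p-values then rest on a library-to-library spread that can be technical.

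A ribosome joins a small subunit, which holds the messenger RNA and decodes it, to a large subunit, which forms the peptide bond and guides the new chain through its exit tunnel. Each subunit needs nearly all of its proteins in equal number, and their messenger RNAs are short and abundant in nearly every cell type. Most begin with a C followed by a run of C and T bases, the 5′ terminal oligopyrimidine (TOP) tract, through which the kinase mTOR and the RNA-binding protein Larp1 control their translation and stability. Embryonic stem cells are known for a low rate of translation that increases as they differentiate.

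Library totals ran from 5299432 to 15921283 counts. The kit reads about 1 fragment per transcript close to its 3′ end, so counts scaled to a common library size (CPM, with trimmed-mean scaling factors) were compared between genes without division by length. All 8 stem cell markers were tested, and their summed level was 2734 to 3493 CPM in control, 2622 to 3059 with proline, 2348 to 2627 with budesonide and 2694 to 2844 with both, so that budesonide lay below control without overlap. The other marker sums were far lower. Those of 6 endoderm markers were 6.94 to 13.1 CPM in control, 23.8 to 26.8 with proline, 5.40 to 14.2 with budesonide and 13.5 to 21.2 with both. Those of 8 feeder fibroblast markers, with Lum and Postn at 0, were 9.64 to 19.3 CPM in control, 17.6 to 22.9 with proline, 5.73 to 12.5 with budesonide and 2.15 to 6.29 with both. The 5 trophoblast markers summed to 11.4 to 22.7 CPM in all libraries, and the 4 groups' ranges overlapped. Of the feeder markers 4 were tested, and by edgeR only Thy1 was called. Its log2 change was -3.29 ± 0.62 (SE) for both against proline and -2.74 ± 0.61 for both against control. Among the endoderm markers Sox17 was called higher with proline (5.02 ± 1.52) and with budesonide (5.28 ± 1.53) against control. Its level lay within the sums above, at most 13.1 CPM in control, 26.8 with proline and 14.2 with budesonide. These large changes thus rest on low counts. The part of these markers in the results was not tested. Among the tested genes 6.57% had no count in control 3 and 8.43% in budesonide 3, against 1.39% to 5.77% in the other 10 libraries, and results are also given without that pair.

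The ribosomal protein genes were a major part of each library. Their median level over the 12 libraries was 1054 CPM, with quartiles of 620 and 1757 CPM. Rps20, Rps26, Rps21, Rpl37 and Rpl8 stood highest and together held 20.8% of the counts of all members, and Rps20 reached 5398 CPM. Only 5 tested members lay under 100 CPM: Rpl10a at 98.7, Rps6 at 61.0, Rps10 at 55.8, Rpl29 at 1.91 and Rpl3l, a paralog of Rpl3 known from striated muscle, at 0.843 CPM. Rpl29 and Rps6 are core ribosomal proteins, and a low count need not mean a low transcript level. Of the 79 genes 60 share a stretch of 50 bases within the last 200 bases of their transcript with at least 1 other annotated gene (median 4 genes, at most 53 for Rpl21). Reads from such stretches could be dropped or assigned to a copy, and how they were counted is not given in the sources used here. Rps6, the substrate of S6 kinase, varied most within groups, with a pooled within-group SD of 1.73 on the log2 scale against a median of 0.159 over the members.

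The share of all counts taken by the 79 genes was lower with budesonide. In the control libraries it was 11.9%, 11.9% and 12.1%. In the proline libraries it was 12.4%, 13.1% and 11.4%. With budesonide it was 9.44%, 9.54% and 8.95%, and with both agents 10.4%, 9.99% and 11.7%. All budesonide libraries thus lay below all libraries of the other groups, the libraries given both lay below all control libraries, and proline and control overlapped. The group means were 11.98% ± 0.136 for control, 12.3% ± 0.855 for proline, 9.31% ± 0.317 for budesonide and 10.7% ± 0.902 for both (SD, n = 3). Counting error was small beside these gaps, since the 95% Wilson interval of a library's share was at most 0.0276 percentage points to either side and covers counting error only. Fewer of these transcripts per cell cannot be told apart from a change in the mixture of cells in the dish.

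The total behind these shares held other RNA that differed between libraries. Rn18s, the 18S ribosomal RNA, took 2.21%, 2.68% and 2.77% of the counts in control, 3.39%, 2.36% and 2.88% with proline, 4.11%, 2.28% and 6.70% with budesonide and 4.52%, 5.90% and 3.11% with both. All libraries given both thus lay above all control libraries, and budesonide 3 and both replicate 2, highest in Rn18s in their groups, had the lowest ribosomal protein shares there. Of the counts left without Rn18s, a step added after seeing the data, the ribosomal protein genes held 12.2% to 12.5% in control, 11.7% to 13.4% with proline, 9.59% to 9.85% with budesonide and 10.6% to 12.1% with both, so the order of the groups and their overlaps were as before. The mitochondrially encoded genes held 5.51% to 5.79% of all counts with proline and 7.31% to 8.03% in the other groups, and the part of this gap in the comparisons with proline was not tested.

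**Figure D1:**
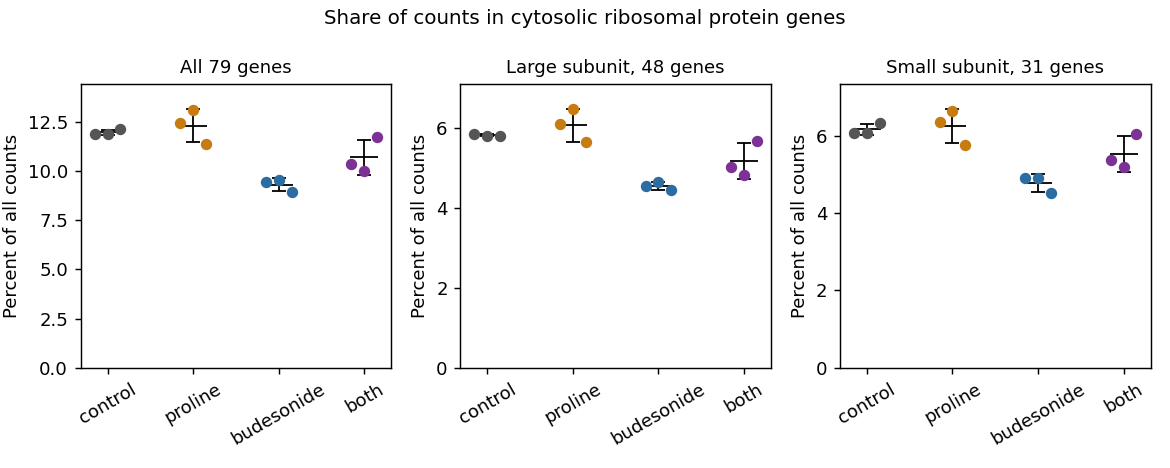
Percent of all counts in the 79 ribosomal protein genes (left), the 48 large subunit genes (middle) and the 31 small subunit genes (right) in each library, by group. Points are libraries, and black marks are the mean ± SD of 3 libraries. The budesonide libraries (8.95% to 9.54% in the left panel) lie below all others, and both subunits show the same order.

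Both subunits showed the same order of groups. The large subunit genes held 5.82% ± 0.0247 of the counts in untreated cells, 4.545% ± 0.1003 with budesonide, 6.06% ± 0.413 with proline and 5.17% ± 0.449 in cells given both (SD, n = 3). The small subunit genes held 6.16% ± 0.152, 4.77% ± 0.227, 6.25% ± 0.444 and 5.52% ± 0.453 in the same order. The ratio of large to small subunit counts was 0.945 ± 0.0260 in untreated cells, 0.954 ± 0.0303 with budesonide, 0.971 ± 0.00921 with proline and 0.936 ± 0.00546 in cells given both (SD, n = 3). Control and budesonide libraries overlapped in that ratio, and only proline and both did not overlap each other.

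Budesonide against control gave the broadest difference. Of the 78 tested members 50 (64.1%) fell and none rose, at an adjusted p under 0.05 by edgeR, where 4.0% of all tested genes fell and 2.51% rose. The median change over the members was -0.48 on the log2 scale, so that the level at the median fell by 28.2%, against 0.01 over all tested genes, and 76 of the 78 values were below 0. With the trend of counts with transcript length taken out of each library, 25 members fell and none rose, all of them among the 50, and the median was -0.30. For 54 members every budesonide library lay below every control library, which 12.2% of all tested genes did. In each budesonide library between 2 and 7 of the members stood above their own mean over the 12 libraries, against 52 to 67 in each control library.

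Among the large subunit genes 29 of 47 fell (median -0.48), and among the small subunit genes 21 of 31 (median -0.48). Rps23, which sits at the decoding centre of the small subunit, had the largest fall. It measured 986, 975 and 689 CPM in control and 468, 338 and 409 CPM with budesonide. The groups did not overlap, and the log2 change was -1.13 ± 0.19 (SE, edgeR adjusted p = 0.00076), so that the fitted level fell by 54.2%.

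Rpl21, a large subunit protein, was at 1040, 988 and 915 CPM in control and 481, 452 and 508 CPM with budesonide. All 3 treated libraries were near 50% of the control level, and the log2 change was -1.03 ± 0.12 (edgeR adjusted p = 2.4e-05). Rps7, known also for binding the p53 regulator Mdm2, measured 1447, 1536 and 1761 CPM in control and 840, 893 and 776 CPM with budesonide, a log2 change of -0.92 ± 0.11 (edgeR adjusted p = 2.5e-05). Rpl4, whose long loop lines the exit tunnel, was at 3730, 3148 and 3058 CPM in control and 1908, 1606 and 1761 CPM with budesonide. Its log2 change was -0.91 ± 0.11 (edgeR adjusted p = 2.8e-05), with no overlap of the groups.

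Rps27a, which is made as a fusion with ubiquitin, was more uneven, at 965, 838 and 572 CPM in control and 437, 263 and 553 CPM with budesonide. Control 3 and budesonide 3 came close to each other in that gene, and the log2 change was -0.92 ± 0.23 (edgeR adjusted p = 0.014). Rps26, a protein at the messenger RNA exit channel and the second most abundant member, was at 5088, 5446 and 6579 CPM in control and 3800, 3441 and 2869 CPM with budesonide. Its log2 change was -0.76 ± 0.11 (edgeR adjusted p = 0.00014). Other large falls included those of Rpl34 (-0.81 ± 0.22) and Rpl23a (-0.79 ± 0.17), a protein at the mouth of the exit tunnel. Rps4x, the X-linked small subunit gene, fell by 0.71 on the log2 scale (SE 0.12) and Rpsa, also known as the laminin receptor precursor, fell by 0.57 (SE 0.12).

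**Figure D2:**
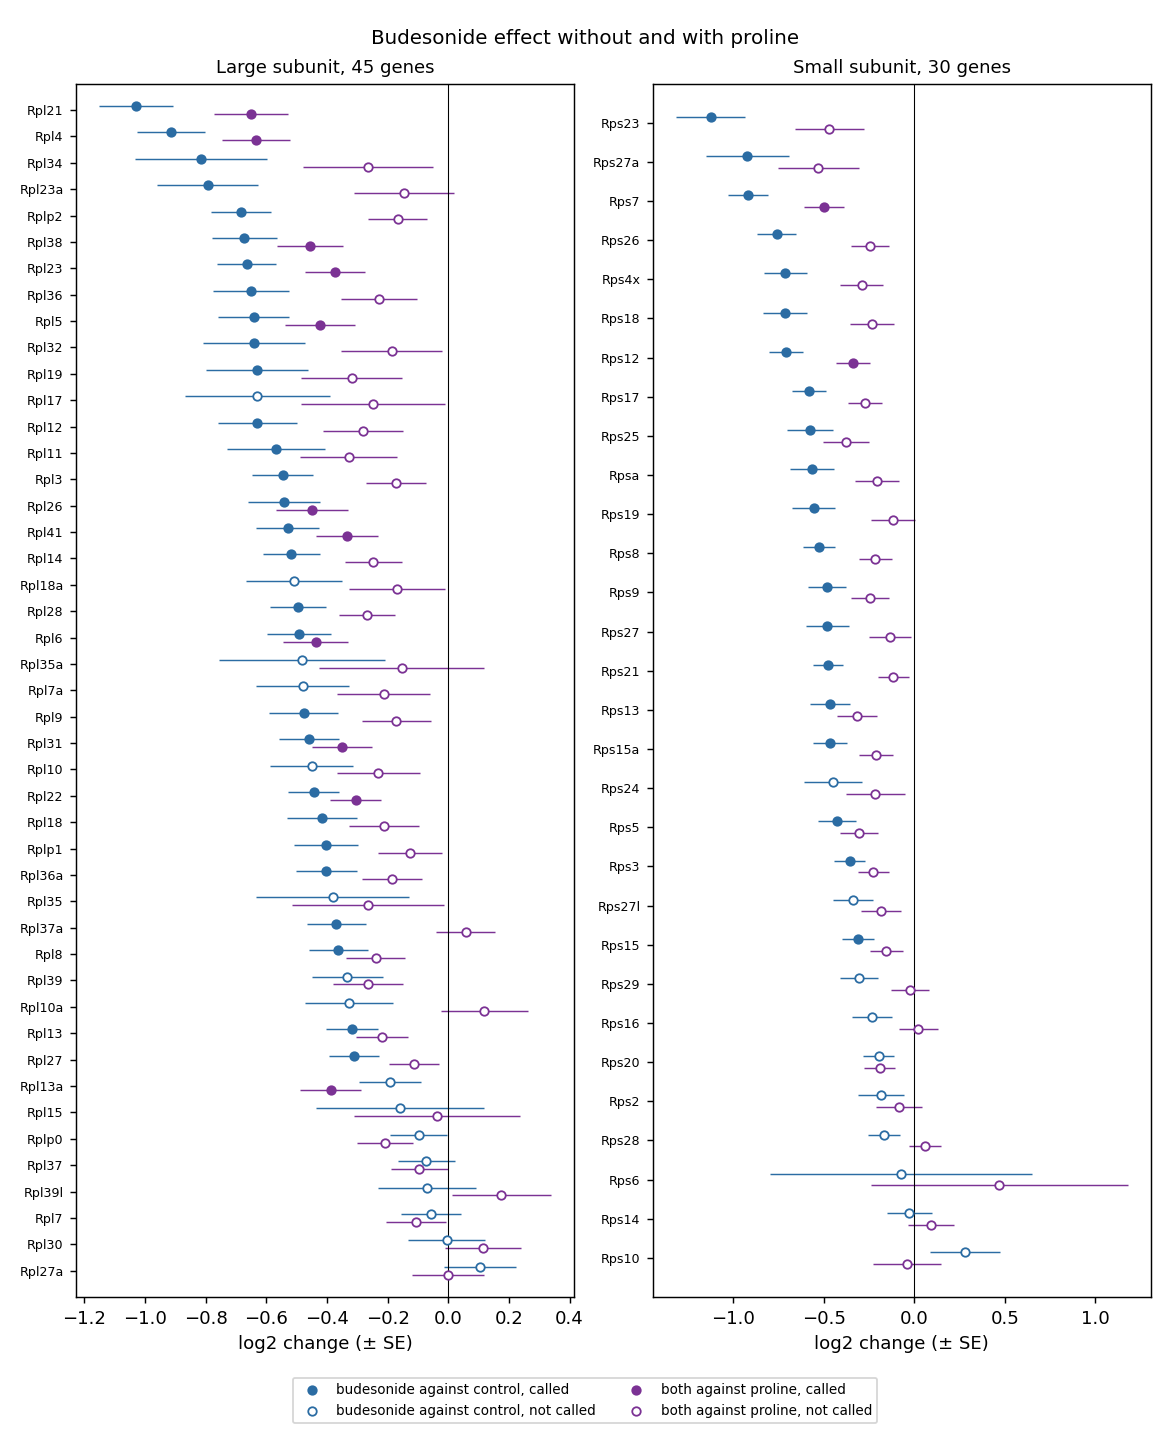
log2 change ± SE of each ribosomal protein gene for budesonide against control (blue) and both against proline (purple), with large subunit genes on the left and small subunit genes on the right. Filled points were called at an adjusted p under 0.05, and Rpl29 and Rpl3l (SE over 1) and 1 further small subunit gene are not drawn. Nearly all blue points lie below 0, from -1.13 for Rps23 to 0.28 for Rps10, and most purple points lie between the blue point and 0.

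The proteins of the stalk, which recruits the elongation factors to the large subunit, differed among themselves. Rplp2 measured 2559, 2845 and 3211 CPM in control and 1724, 1837 and 1801 CPM with budesonide, and fell by 0.68 on the log2 scale (SE 0.10, edgeR adjusted p = 0.00015). Rplp1 measured 2608, 2832 and 2751 CPM in control and 2024, 2169 and 1998 CPM with budesonide, and fell by 0.40 (SE 0.10, edgeR adjusted p = 0.020). Rplp0, to which the other two bind, did not pass the test. It was at 855, 968 and 934 CPM in control and 820, 871 and 886 CPM with budesonide, a log2 change of -0.10 ± 0.09 with overlapping groups.

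Of the 5 most abundant members, 3 fell with budesonide: Rps26 (above), Rps21 with a log2 change of -0.48 ± 0.09 and Rpl8 with -0.36 ± 0.10. The highest, Rps20, did not pass the test, at 5238, 5538 and 6641 CPM in control and 5109, 4776 and 5322 CPM with budesonide (log2 change -0.20 ± 0.09). Rpl37, at 3745, 4471 and 4544 CPM in control and 3553, 4278 and 4309 CPM with budesonide, had a log2 change of -0.07 ± 0.09. Rpl27a and Rps10 were the only members with values above 0, at 0.10 ± 0.12 and 0.28 ± 0.19, and neither passed the test.

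The 28 members that did not pass the test had a median log2 change of -0.19, against -0.55 for the 50 that fell, a gap that the test itself draws. Their median level was 654 CPM and their median SE 0.13, against 1580 CPM and 0.11 for the 50. The change was not ordered by level or transcript length over the 78 members (Spearman's rho of 0.040 and -0.0019, which share these libraries and are descriptive). Without control 3 and budesonide 3, 42 members fell and none rose, and 35 of them were among the 50.

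**Figure D3:**
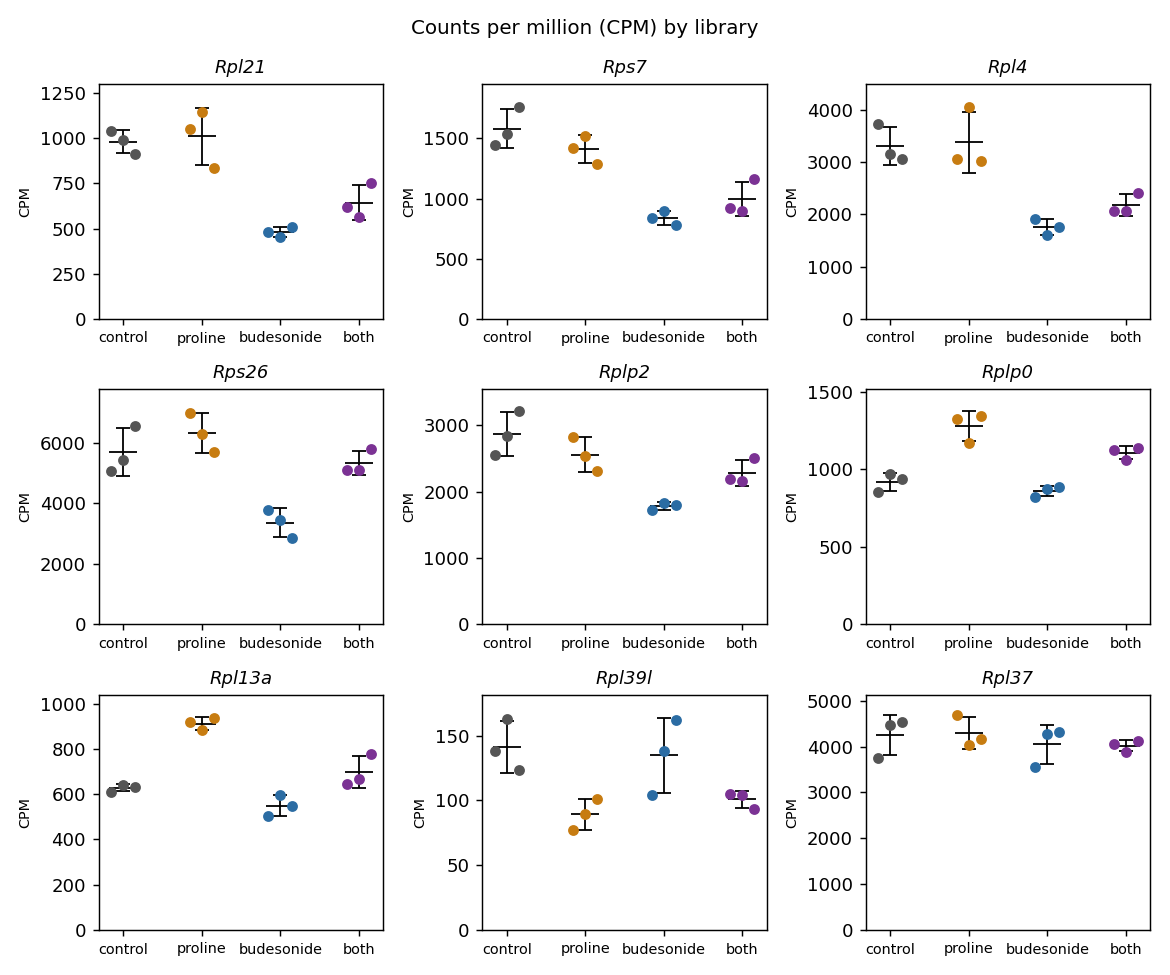
CPM of 9 ribosomal protein genes in each library, by group, with a separate vertical axis from 0 for each gene. Points are libraries, and black marks are the mean ± SD of 3 libraries. Rpl21, Rps7 and Rpl4 are low in both budesonide-containing groups, Rps26 and Rplp2 are lowest with budesonide alone, Rplp0 and Rpl13a are highest with proline, Rpl39l has its lowest mean with proline, and the Rpl37 libraries overlap in all groups.

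The bases around the transcript start are shown for 9 members with a single annotated start, because the TOP tract is the feature by which these genes are usually treated as a class. They were taken from RefSeq (GRCm38.p6, an earlier build than the GRCm39 named in the submitters' processing notes), which had a promoter entry for 59 of the 79 genes, 49 of them with 1 start. Each window holds 15 bases before the annotated start and 15 from it on, written 5′ to 3′ on the transcribed strand. Capitals mark the longest run that opens with C and continues with at least 5 bases that are C or T. Rps23, Rpl4, Rps26 and Rplp2 fell with budesonide and have such a run. Rps7 and Rps4x fell by similar amounts (-0.92 and -0.71) and have none in the window. Rpl27a and Rplp0 did not pass the test, the first with a long run and the second without, and Rpl13a rose with proline (below).
Rps23, chr13:90923107-90923136, plus strand: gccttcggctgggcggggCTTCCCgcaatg
Rpl4, chr9:64173372-64173401, plus strand: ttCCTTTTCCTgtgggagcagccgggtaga
Rps26, chr10:128626492-128626521, minus strand: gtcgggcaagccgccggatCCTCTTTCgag
Rplp2, chr7:141447636-141447665, plus strand: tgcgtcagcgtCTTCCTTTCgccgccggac
Rps7, chr12:28635939-28635968, minus strand: gcttccggtttccacccacctacttccgct
Rps4x, chrX:102189377-102189406, minus strand: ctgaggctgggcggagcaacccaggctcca
Rpl27a, chr7:109519180-109519209, plus strand: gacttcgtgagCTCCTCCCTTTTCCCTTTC
Rplp0, chr5:115559452-115559481, plus strand: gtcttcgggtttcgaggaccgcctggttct
Rpl13a, chr7:45128731-45128760, minus strand: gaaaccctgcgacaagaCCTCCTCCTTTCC
These 9 genes were chosen after their values were seen, so how the run is spread among them is no result about the class. Over all members in the RefSeq table the run was found in 36 of 71 windows (50.7%), against 22.5% of all 32851 windows in that table and 23.2% of the windows of other tested coding genes. Only the transcribed strand was searched, and an annotated start may be some bases from the start used in these cells. With budesonide, 21 of the 35 tested members with the run fell (median -0.48), and 17 of the 23 without it (median -0.47). The match is a description of letters in a window, not of a working TOP tract.

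Proline alone changed few ribosomal protein genes. Of the 78 members 4 rose (5.13%) and 1 fell (1.28%), where 3.17% of all tested genes rose and 4.71% fell, so the members' shares were close to the background. The median change was 0.03 on the log2 scale. Over the 78 members it tended to be higher in the less abundant ones (Spearman's rho with level of -0.345, descriptive). In 9 members all proline libraries were above all control libraries, and in 2 below, against 12.7% and 14.0% of all tested genes. Rpl13a, known for silencing translation of inflammatory messages when released from the ribosome, had 611, 642 and 632 CPM in control and 917, 881 and 938 CPM with proline. It rose by 0.54 ± 0.10 on the log2 scale (edgeR adjusted p = 0.0012).

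Rplp0 went from 855, 968 and 934 CPM in control to 1324, 1168 and 1345 CPM with proline, a log2 change of 0.48 ± 0.09 (edgeR adjusted p = 0.0019). The other two stalk genes did not pass the test, with values of 0.17 ± 0.10 for Rplp1 and -0.16 ± 0.10 for Rplp2. Rps2 (0.47 ± 0.13) and Rps3 (0.31 ± 0.09), small subunit proteins at the messenger RNA entry channel, also rose. Without control 2 or without proline 1, 2 members rose and none fell, and without proline 2, 2 rose and 1 fell. The fall was that of Rpl39l, a paralog of the exit tunnel protein Rpl39 best known from testis. It measured 138, 163 and 123 CPM in control and 77.1, 89.8 and 101 CPM with proline, a log2 change of -0.66 ± 0.16 (edgeR adjusted p = 0.012). Of the most abundant members, Rps20 (-0.02 ± 0.09), Rps26 (0.15 ± 0.11), Rps21 (-0.12 ± 0.09), Rpl37 (0.01 ± 0.09) and Rpl8 (0.10 ± 0.10) did not pass the test, nor did Rpsa (-0.03 ± 0.12) or Rps27a (-0.03 ± 0.22). Rpl39 itself had 1088, 932 and 884 CPM in control and 1085, 1274 and 1199 CPM with proline, a log2 change of 0.29 ± 0.12 that did not pass the test.

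Budesonide added to proline (both against proline) gave a smaller difference in the same direction. Of the 78 members 13 (16.7%) fell and none rose, where 4.27% of all tested genes fell and 5.83% rose. The median change was -0.22, a level that dropped by 13.9%, 69 values were below 0, and in 24 members all libraries given both lay below all proline libraries and in none above, against 15.6% and 16.3% of all tested genes. By subunit 11 of 47 large and 2 of 31 small subunit genes fell, with medians of -0.23 and -0.21, so the counts of calls differed more than the values did. The count was 7 with the length trend taken out, and it rests on single libraries: it was 6 without proline 1, 7 without proline 2, 4 without both replicate 1, 4 without both replicate 2 and 21 without both replicate 3, and 22 without control 3 and budesonide 3.

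Rpl21 measured 1051, 1146 and 834 CPM with proline and 618, 562 and 750 CPM with both, a log2 change of -0.65 ± 0.12 (edgeR adjusted p = 0.00092). Rpl4 measured 3057, 4049 and 3032 CPM with proline and 2057, 2066 and 2414 CPM with both, a log2 change of -0.63 ± 0.11 (edgeR adjusted p = 0.00057). Neither gene's groups overlapped. The other large falls were those of Rps7 (-0.50 ± 0.11), Rpl38 (-0.46 ± 0.11), a gene known for patterning defects in mice that lack 1 copy, Rpl26 (-0.45 ± 0.12), Rpl6 (-0.44 ± 0.11), Rpl5 (-0.42 ± 0.12), which binds 5S ribosomal RNA, and Rpl13a (-0.39 ± 0.10). Rps23, first in budesonide against control, had -0.47 ± 0.19 here and did not pass the test, and Rps26 had -0.24 ± 0.11 and Rpl23a -0.15 ± 0.16. The stalk genes did not pass the test either, with values of -0.21 ± 0.09 for Rplp0, -0.13 ± 0.10 for Rplp1 and -0.17 ± 0.10 for Rplp2. Rps4x had -0.29 ± 0.12, Rpsa -0.20 ± 0.12 and Rps27a -0.53 ± 0.23, again short of the threshold.

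The comparisons of budesonide with control and of both with proline share no library. In the first, 50 of the 78 members fell, so most of 13 members drawn at random would be expected among them. Of the 13 members that fell in the second, 12 (92.3%) had fallen in the first, Rpl13a being the exception, and these were 24.0% of the 50. The overlap over all tested genes is not given here, so the 92.3% is a description only. Across the 78 members the changes had a Pearson's r of 0.755 and a Spearman's rho of 0.710, given as a description, since the genes share libraries and scaling. In 72 of the 78 the value with proline present was above the value without it.

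**Figure D4:**
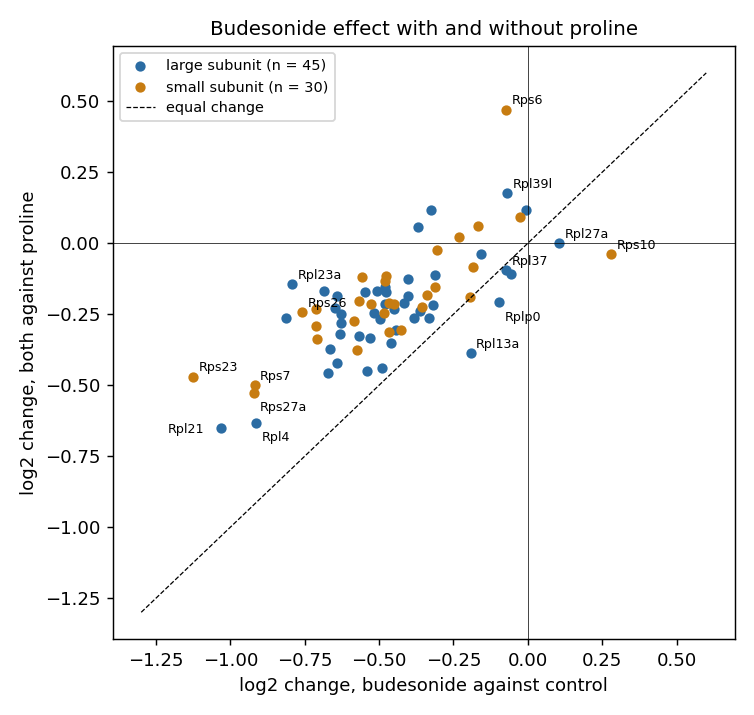
log2 change for both against proline (vertical) over log2 change for budesonide against control (horizontal), 1 point per ribosomal protein gene by subunit, without Rpl29 and Rpl3l (SE over 1) and 1 further small subunit gene. The dashed line marks equal change. Most points lie above the line and below 0 on both axes, with Rpl13a and Rplp0 among the few below the line.

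That gap is the interaction of the treatments, the change from proline in the presence of budesonide minus the change from proline in its absence. No member passed its test by edgeR, and the lowest adjusted p among them was 0.128, for Rplp2 (0.52 ± 0.14). The median was 0.25, against 0.03 over all tested genes, of which 0.411% were called higher and 0.0578% lower. At an unadjusted p under 0.05 there were 20 of the 78 members, all with a value above 0, where 8.65% of all tested genes had such a p. Rplp2 was called by DESeq2 (adjusted p = 0.023) and by limma-voom (adjusted p = 0.0497), the only member that either called.

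With budesonide present, proline went with higher values (both against budesonide). Of the 78 members 9 (11.5%) rose and none fell, where 0.874% of all tested genes rose and 0.592% fell. The median was 0.33, a level 26.0% higher, and in 50 members all libraries given both lay above all budesonide libraries and in none below, against 10.2% and 9.23% of all tested genes. Over the 78 members the change tended to be higher in the less abundant ones (Spearman's rho with level of -0.445, descriptive). Rpl23a measured 167, 177 and 139 CPM with budesonide and 258, 265 and 373 CPM with both, a log2 change of 0.89 ± 0.17 (edgeR adjusted p = 0.0066). Rps26 measured 3800, 3441 and 2869 CPM with budesonide and 5111, 5113 and 5813 CPM with both, a log2 change of 0.67 ± 0.11 (edgeR adjusted p = 0.0019). Neither gene's groups overlapped.

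The other rises were those of Rpl10a (0.57 ± 0.14), Rps2 (0.57 ± 0.13), Rpl37a (0.45 ± 0.10), Rplp1 (0.44 ± 0.10), Rps3 (0.44 ± 0.09), Rps12 (0.40 ± 0.09) and Rpl27 (0.34 ± 0.09), 5 large and 4 small subunit genes in all. Rplp0 went from 820, 871 and 886 CPM with budesonide to 1124, 1056 and 1139 CPM with both, without overlap, and missed the threshold narrowly (0.37 ± 0.09, edgeR adjusted p = 0.0501). Rplp2 (0.35 ± 0.10) and Rpsa (0.33 ± 0.12) did not pass it, and Rps20 and Rpl37, which had not passed it with budesonide alone, had values of -0.02 ± 0.09 and -0.01 ± 0.09. Rps2 and Rps3 had risen with proline alone too, and they were 2 of the 4 and 2 of the 9. The count rests on single libraries: without both replicate 3, the library of this group with the highest share of ribosomal protein counts, 1 member rose. Without budesonide 3 or without both replicate 1, 3 rose, and without budesonide 1, 5 rose.

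Both agents together against control left a partial difference. Of the 78 members 11 (14.1%) fell and none rose, where 3.83% of all tested genes fell and 3.34% rose, and the median was -0.18. With the length trend taken out, 3 members rose and 6 fell, and the median was -0.02. In 26 members all libraries given both lay below all control libraries and in 4 above, against 14.0% and 14.4% of all tested genes. Rps7 measured 925, 900 and 1162 CPM with both, below all control libraries, a log2 change of -0.67 ± 0.11 (edgeR adjusted p = 0.00046). The next were Rpl21 (-0.61 ± 0.12), Rpl4 (-0.60 ± 0.11), Rpl26 (-0.58 ± 0.12), Rpl38 (-0.50 ± 0.11), Rpl5 (-0.47 ± 0.12), Rpl23 (-0.45 ± 0.10) and Rpl31 (-0.40 ± 0.10). Of the stalk genes only Rplp2 fell (-0.33 ± 0.10, edgeR adjusted p = 0.040), while Rplp0 had 0.27 ± 0.09 and Rplp1 0.04 ± 0.10. Rps26, lowest with budesonide alone, had -0.09 ± 0.11 and did not pass the test. Without control 2 or without both replicate 1, 7 members fell, without both replicate 2, 6 fell, and without both replicate 3, 19 fell. This comparison shares its control libraries with the comparison of budesonide alone, so it is not separate evidence.

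The other ribosomal proteins whose symbols the name rule does not reach gave a mixed picture. Of 8 such genes, 3 fell with budesonide against control: Rsl24d1, a factor of large subunit assembly related to Rpl24 (-0.91 ± 0.14), Fau, the precursor of the small subunit protein eS30 (-0.71 ± 0.10), and Rpl7l1 (-0.54 ± 0.12). The median of the 8 was -0.26, and 4.0% of all tested genes fell. Rps27l, a paralog of Rps27 known as a p53 target, did not pass the test (-0.34 ± 0.11), and Rps27 fell (-0.48 ± 0.12). Rpl39l, at 104, 138 and 162 CPM with budesonide, overlapped its control libraries (-0.07 ± 0.16), and Rpl39 had -0.33 ± 0.12 and did not pass the test either. Rpl3 fell by 0.55 on the log2 scale (SE 0.10), while Rpl3l was too rare to compare, with 69 counts in all.

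Pseudogenes of this family showed the members' direction in one comparison and not in the other. The 322 symbols named as Rpl or Rps pseudogenes held 0.466% ± 0.0593 of all counts in untreated cells, 0.456% ± 0.0319 with budesonide, 0.519% ± 0.0148 with proline and 0.412% ± 0.0163 in cells given both (SD, n = 3). Control and budesonide overlapped, while all libraries given both (0.401% to 0.431%) lay below all proline libraries (0.503% to 0.532%). Rps4l held 0.0945% ± 0.00892 in control and 0.0965% ± 0.00621 with budesonide, again with overlap, where Rps4x fell. Among the 59 tested members that share a stretch with another gene 40 fell with budesonide (median -0.48), and among the 19 that share none 10 did (median -0.43).

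Other short genes were also lower with budesonide at the median, by less. Among 22 tested coding genes of at most 1000 bases that were at least as abundant as the lower quartile of the members, 6 fell and none rose (27.3% fell, median -0.20), against 64.1% and -0.48 in the members. With the length limit at 3706 bases, the longest member transcript (Rps20), 33 of 111 such genes fell and 3 rose (median -0.19). Among 29 equally abundant but longer genes 5 fell and 2 rose, with a median of -0.04 close to that of all tested genes (0.01). Among all 810 other tested coding genes of at most 1000 bases 81 fell and 5 rose (median -0.22). Over all tested genes 4.0% fell and 2.51% rose. The differences between these groups of genes were not tested.

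**Figure D5:**
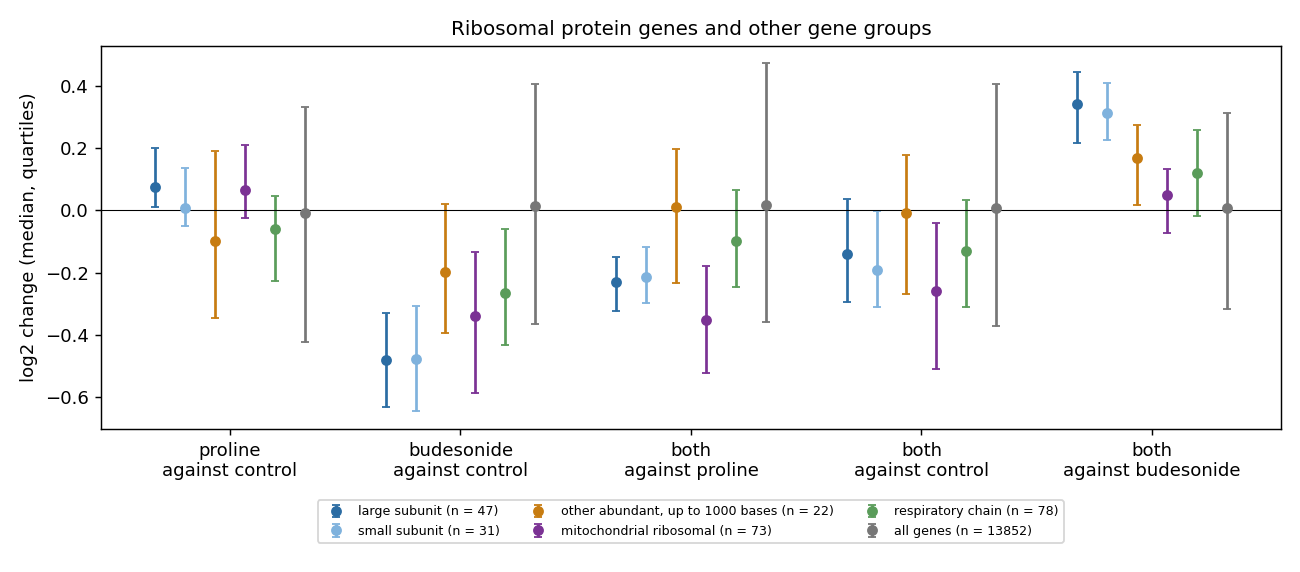
Median log2 change (points) with quartiles (bars) in 5 comparisons for large and small subunit genes, other abundant coding genes of at most 1000 bases, mitochondrial ribosomal proteins, respiratory chain subunits and all tested genes. For budesonide against control the subunit medians (both -0.48) lie lowest, and for both against proline the mitochondrial ribosomal proteins (-0.35) do.

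Transcript length moved with the treatment over the whole table. Across 13533 tested genes with an annotated length, a library's log2 deviation from the 12-library mean had a Spearman's rho with length of -0.083 to -0.066 in the control libraries, -0.124 to -0.080 with proline, 0.101 to 0.129 with budesonide and 0.048 to 0.079 with both. Within transcripts of at most 1000 bases, the range of 61 of the 79 members, rho did not show this order. A shift shared by all of that range would not enter a rho within it, so such a rho cannot show whether the range moved. Across the 810 other tested coding genes in that range rho was -0.065 to -0.014 in control, 0.0050 to 0.049 with proline, -0.016 to 0.029 with budesonide and -0.010 to 0.046 with both, so that budesonide overlapped each of the other groups. All genes within a library share its depth and its RNA, and RNA integrity is not in the labels. The counts given above with the length trend taken out used the trend over all lengths.

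Other protein complexes had medians of the same sign. Over all tested genes 4.0% fell with budesonide, 4.27% fell for both against proline and 0.874% rose for both against budesonide. Of 73 tested mitochondrial ribosomal proteins, which build the separate ribosome of that organelle, 20 fell with budesonide and none rose (median -0.34), and 20 fell for both against proline (median -0.35). Their median for both against budesonide was 0.05, with 1 rise, against 0.33 and 9 rises in the cytosolic members. Among 78 tested respiratory chain subunits 17 fell with budesonide (median -0.27), among 39 proteasome subunits 8 (median -0.19), and among 23 Snrp and Lsm splicing proteins 8 (median -0.23). None rose in these lists, and their medians were near that of the other short coding genes given above.

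Genes that build ribosomes or act on their messages were followed in lists chosen with results of these data known. Of 60 ribosome biogenesis genes 15 fell with budesonide and none rose (median -0.29), where 4.0% of all tested genes fell and 2.51% rose. The largest falls were those of Fbl, the methyltransferase of ribosomal RNA (-1.02 ± 0.20), Npm1, a nucleolar chaperone (-0.88 ± 0.09), and Bop1, a factor of large subunit maturation (-0.86 ± 0.19). For both against proline 22 of the 60 fell and 2 rose (median -0.41), where 4.27% of all tested genes fell and 5.83% rose. For both against budesonide 3 rose, Fbl (0.86 ± 0.20), Npm1 (0.48 ± 0.09) and Taf1d (0.47 ± 0.10), where 0.874% of all tested genes rose. With proline alone 3 rose and 2 fell, where 3.17% of all tested genes rose and 4.71% fell.

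Of 24 tested genes outside the ribosome that are known for a TOP tract, 7 fell and 1 rose with budesonide (median -0.26), led by Naca (-0.91 ± 0.11), a chaperone at the tunnel exit, Npm1 and the elongation factor subunit Eef1d (-0.87 ± 0.12). With proline 6 of the 24 rose and none fell, among them the poly(A)-binding proteins Pabpc4 (0.86 ± 0.15) and Pabpc1 (0.44 ± 0.13). Over all tested genes 4.0% fell and 2.51% rose with budesonide, and 3.17% rose and 4.71% fell with proline. Among 19 tested regulators and chaperones of ribosomal proteins, Mycn, a transcription factor known to drive ribosome production, rose with proline (0.95 ± 0.12) and fell with budesonide (-0.45 ± 0.12) and for both against proline (-0.94 ± 0.12). Larp1 rose with proline (0.64 ± 0.13) and for both against budesonide (0.56 ± 0.13). No other gene of that list passed the test for budesonide or proline against control.

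Some stem cell markers also changed, not always in the direction of the ribosomal protein genes. Esrrb (-1.66 ± 0.14), Zfp42 (-1.36 ± 0.16) and Nanog (-0.97 ± 0.15) fell with proline alone, and for both against proline the same genes rose (1.52 ± 0.14, 1.10 ± 0.16 and 1.33 ± 0.15). Tdgf1 (-0.93 ± 0.13) and Utf1 (-0.55 ± 0.12) fell with budesonide against control, and none of the other stem cell markers was called there. Their part in the ribosomal protein result was not tested.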

How the data were processed

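Polyadenylated RNA of 12 libraries was read near the 3′ end with a QuantSeq kit, per the labels' protocols. Per the submitters' processing notes, the authors used cutadapt 2.5, STAR 2.7.5c, featureCounts 2.0 and DESeq2 with the GRCm39 build. The authors deposited raw read counts per gene symbol and a normalized table, and only the counts were used. Members and lists were chosen with earlier results of these data known.

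Genes were kept by filterByExpr (minimum count 10, minimum total 15) and scaled by TMM. They were then fitted with edgeR 4.0.16 in R 4.3.3 (quasi-likelihood F test, 1 coefficient per group, all 12 libraries, 8 residual degrees of freedom). A gene was called at a Benjamini-Hochberg adjusted p under 0.05 over all 13852 genes. A standard error is the absolute log2 change divided by the square root of F. DESeq2 1.42.0, limma 3.58.1 (voom) and other scalings were alternatives. Transcript lengths and shared stretches came from GENCODE M21 (GRCm38), gene types also from RefSeq. Fits were also run on simulated counts for 1 comparison, with the same dispersion for every gene. That setting is simpler than these data, so the run does not show how the fits perform on them. No gene list was tested as a set.

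In each comparison the text names up to 8 called members with the largest change in each direction. The stalk genes, Rpsa, Rps27a, paralogs with their partners and the 5 most abundant members are given for some comparisons and left out of others. Rps10, Rpl27a, Rpl29, Rps6, Rpl10a, Rpl27 and Rpl24 were named for their values after these were seen, and the genes with printed start windows were chosen in the same way. From other lists it names up to 3 called genes. The values of 1 member are not reported here, though it is in the counts.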

Additional observations from a re-analysis of the deposited data

How the results depend on the processing

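The fall with budesonide against control was found under each alternative run: between 25 and 53 members fell, none rose, and the median lay between -0.50 and -0.30. The shares over all tested genes given in the text are those of the main fit. Counts of members under an alternative, here and above, stand without such a share. They cannot show whether the members moved apart from other genes. Of the 50 falls, 21 were called under every alternative with all members. The count was 25 with the transcript length offset, 36 with total count scaling and 39 to 51 when 1 library was left out. It was 10 among the 19 members without a shared stretch, a restriction added after seeing the data, as was the length limit of 1000 bases. Those 19 gave 2 calls for proline against control, 4 for both against proline, 3 for both against control and 1 for both against budesonide, with fewer genes by construction.

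Counts in the other comparisons moved more, and the cause was not tested. A run that calls more or fewer of all genes would move these counts too, and its share over all genes is not given here. For both against proline they were 26 with limma-voom, 7 with the length offset, 22 without control 3 and budesonide 3, and 4 to 21 when 1 library was left out (main count 13). For both against control DESeq2 gave 20, limma-voom 19 and no low-count filter 17, and leaving out 1 library 6 to 19 (main count 11). For both against budesonide total count scaling gave 3, DESeq2 23, limma-voom 17 and no low-count filter 25, and leaving out 1 library 1 to 7 (main count 9). Proline against control gave 2 to 5 when 1 library was left out. The interaction gave 1 with DESeq2, 1 with limma-voom and 2 without the low-count filter, and its fit on only the libraries compared is the same as the main one.

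Values near 0 changed sign. The median for proline against control was -0.025 without proline 2 and 0.12 without proline 3. For budesonide against control, leaving out 1 library moved Rpl27a between -0.032 (without budesonide 3) and 0.20, Rpl37 between -0.15 and 0.015 (without budesonide 1), and Rpl39l between -0.22 and 0.087 (without budesonide 1, and 0.047 without control 2). Total count scaling gave 0.016 for Rpl37 and 0.012 for Rpl39l, and the length offset 0.11 and 0.12, and 0.027 for Rplp0. The 47 called values of named members gave 752 values under alternatives, of which 0 changed sign and 110 lost the call.

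The replicate numbers are not stated to pair libraries. Deviations from the group mean over all tested genes had correlations of -0.096 to 0.057 between same-numbered libraries. A replicate block gave 4 calls for proline against control, 48 for budesonide against control, 12 for both against proline, 8 for both against control, 5 for both against budesonide and 0 for the interaction. Total count scaling shifted the median of all genes by at most 0.087.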
